A study of Mus musculus with 8 samples.

Results

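AP-1 is a family of dimeric transcription factors, and its genes are among the immediate early genes, which cells switch on within minutes of a stimulus without needing new protein. The genes described here were 10 listed mouse symbols, matched to the Ensembl gene IDs of the count files. They were Fos, Fosb, Fosl1 and Fosl2 of the Fos family, Jun, Junb and Jund of the Jun family, Atf3, Maff and Egr1. They made up 10 of the 55416 gene IDs counted, and 10 of the 18560 genes with enough reads to be tested.

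Fos proteins bind DNA only as partners of a Jun protein, whereas Jun proteins can also pair with each other. ATF3 and MAFF belong to the same leucine zipper class, and MAFF, a small Maf protein, has no activation domain of its own. EGR1 is a zinc finger factor that binds GC-rich sites and is induced by many of the same signals. Bacterial lipopolysaccharide (LPS) is sensed by TLR4, and the MAP kinases and NF-kB below this receptor are known to induce these genes in macrophages, epithelium and endothelium. Their transcripts are short-lived, so a level at a late time point gives the state of the tissue at that time and not the early peak.

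Lung RNA was sequenced from 8 female C57BL/6J mice aged 6 to 8 weeks. The 3 control mice (1, 2 and 4) received the solvent DMSO by tail vein and saline into the peritoneum 0.5 h later. The 3 LPS mice (1, 6 and 7) received LPS at 35 mg/kg, and a DMSO injection is not stated for them. The 2 mice of the LPS plus YW3-56 group (2 and 5) received YW3-56, an inhibitor of the peptidylarginine deiminase PAD4, at 10 mg/kg in DMSO 0.5 h before the same LPS dose. Lungs were taken 24 h after LPS. In the paper's survival experiment, median survival was shorter than this time with LPS alone and longer with YW3-56 given first. The condition of the sequenced mice at harvest is not stated. No mice given YW3-56 alone were analysed here, so an action of the compound without LPS was not tested. The methods describe 3 mice per group chosen for sequencing, and both the labels and the study's figure legend give 2 in the dual-treated group. The libraries held between 19061949 and 20908608 counts assigned to genes. Levels are given as CPM, the counts of a gene relative to all counts of its library, after TMM scaling of the library sizes.

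Markers of lung were present in all libraries. Each of 10 genes of alveolar, airway and endothelial cells was detected in every library, and their summed level lay between 43000 and 95100 CPM, with the club cell gene Scgb1a1 the most abundant in each. Their levels were not alike between groups. With LPS 2 of the 10 were higher and 3 lower by the edgeR quasi-likelihood test (Benjamini-Hochberg adjusted p under 0.05), beside 32.6% and 33.9% of all tested genes, and from LPS to dual treatment 1 was higher and 3 lower, beside 31.7% and 27.4%. The endothelial gene Pecam1 had a log2 fold change of -1.52 with LPS and 2.12 from LPS to dual treatment. The log2 fold changes of the endothelial genes Cdh5 (0.17 and -0.44) and Cldn5 (-0.02 and 0.07) did not pass the test in either comparison. Scgb1a1 had one of 0.79 with LPS and -1.28 from LPS to dual treatment, and its highest level was in LPS mouse 1. The surfactant genes Sftpc and Sftpb were lower with LPS, at -0.93 and -0.91. The part of these shifts in the levels of the AP-1 genes was not tested. The summed transcripts of squamous epithelium and of skeletal muscle set LPS mice 6 and 7 apart from the other 6 mice. With LPS, 7 of the 10 squamous genes were called higher and 1 lower, beside 32.6% and 33.9% of all tested genes. The lower one was Ivl, with a log2 fold change of -4.01. Krt14 did not separate these mice, at 17.1 and 22.7 CPM beside 20.2 CPM in dual-treated mouse 5. Of the muscle genes, 9 of 9 tested were called higher. The sum of 10 squamous genes was 14.1, 17.3 and 18.2 CPM in control mice, 1.90 CPM in LPS mouse 1, 728 and 2040 CPM in LPS mice 6 and 7, and 12.8 and 28.4 CPM in the dual-treated mice. Krt13 had the highest mean over the 8 mice, which LPS mice 6 and 7 carried (286 and 887 CPM), while Krt14 was the most abundant of them in control mice 2 and 4 and in both dual-treated mice. The sum of 10 muscle genes was 10.5, 19.8 and 14.7 CPM in control mice, 17.5 CPM in LPS mouse 1, 501 and 1290 CPM in LPS mice 6 and 7, and 5.67 and 8.03 CPM in the dual-treated mice. Acta1 had the highest mean over the 8 mice and led in LPS mice 6 and 7, at 210 and 600 CPM, but it was at 0.690 CPM or less in the other 6 mice. In LPS mouse 1, 3 of the squamous genes (Krt4, Krt6a and Sprr3) and 3 of the muscle genes (Myh1, Myh2 and Pvalb) were at 0 CPM. The fold changes from or to LPS of the 10 AP-1 genes are therefore given with and without LPS mice 6 and 7, and those of all other genes only with them.

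The blood-derived cells also differed between groups. The summed level of 10 neutrophil markers was 316, 256 and 179 CPM in control mice, 2490, 3380 and 2330 CPM in LPS mice 1, 6 and 7, and 1780 and 2370 CPM in dual-treated mice 2 and 5. S100a9 and S100a8 carried most of the sum in LPS and dual-treated mice, so it hides how the other markers moved. From LPS to dual treatment 5 of the 10 were lower and 3 higher by the same test, where 27.4% of all tested genes were lower and 31.7% higher. The granule genes Mpo, Elane and Camp and the surface gene Ly6g were lower by log2 fold changes of -4.18, -4.16, -2.96 and -2.75. Csf3r, Cxcr2 and Retnlg were the 3 higher ones and are named after their values were seen. The summed level of 10 macrophage and monocyte markers was 6290, 5790 and 7700 CPM in control mice, 5850, 4860 and 3480 CPM in LPS mice and 6630 and 8950 CPM in dual-treated mice. Lyz2 made up most of this sum in every mouse, with 3220 to 8130 CPM. Of the 10 markers, 8 were higher in dual-treated than in LPS lung, beside 31.7% of all tested genes. In dual-treated against control lung 7 were higher, beside 9.13% of all tested genes. With LPS, 2 of the 10 were higher and 3 lower, beside 32.6% and 33.9% of all tested genes. Ly6c2 and Itgam rose with LPS, by log2 fold changes of 3.37 and 3.19. Ccr2 had one of -3.19 with LPS and 3.77 from LPS to dual treatment, and Itgam one of 4.13 in dual-treated against control lung. No neutrophil or macrophage marker of these lists was at 0 in any library. In whole lung, a change in the number of cells of a type and a change in the RNA made per cell cannot be told apart. The part of these cells in the levels of the AP-1 genes was not tested.

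Nearly the whole set was higher after LPS. At 24 h, 9 of the 10 genes were higher in LPS lungs than in control lungs by the edgeR quasi-likelihood test (Benjamini-Hochberg adjusted p under 0.05), and Fosb was the exception. Of all tested genes, 32.6% were called higher and 33.9% lower in this comparison. No AP-1 gene was called lower with all mice and TMM scaling, at an unadjusted p under 0.05 or by DESeq2, but edgeR called Fosb lower with library size only and without LPS mouse 1. In the same 9 genes every LPS mouse was above every control mouse, a separation that 34.7% of all tested genes showed. The median log2 fold change was 2.42 over the 10 genes and -0.01 over all tested genes. Leaving out LPS mice 6 and 7 keeps only LPS mouse 1, the highest LPS mouse in all 10 genes. That fit could only raise the log2 fold changes, so it is no check on these calls. It also assumes that a lone LPS mouse varies like the other groups.

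Among the Fos family, Fos, Fosl1 and Fosl2 rose with LPS and Fosb did not pass the test. Fos (ENSMUSG00000021250, GRCm39 chr12:85520658-85524047) is the classic immediate early gene and encodes a strongly activating partner of Jun. It stood at 34.0, 26.1 and 27.2 CPM in control mice 1, 2 and 4, and at 350, 109 and 159 CPM in LPS mice 1, 6 and 7. The lowest LPS mouse was thus well above the highest control mouse, and LPS mouse 1 was far above its group. Fos had a log2 fold change of 2.82 (SE 0.394, edgeR quasi-likelihood test, Benjamini-Hochberg adjusted p = 0.00017), and it was 2.21 without LPS mouse 1 and 3.60 without LPS mice 6 and 7.

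Fosl2 (ENSMUSG00000029135, chr5:32292707-32315186) encodes FRA-2, a Fos relative without the strong activation domain of FOS. With all mice in the fit, it showed the largest fold change of the 10 genes. Its level was 110, 95.4 and 94.6 CPM in the control mice and 1190, 725 and 842 CPM in LPS mice 1, 6 and 7. The groups did not overlap, and the LPS mice lay closer together than for Fos. Fosl2 had a log2 fold change of 3.20 (SE 0.195, edgeR quasi-likelihood test, Benjamini-Hochberg adjusted p = 1.52e-06). It was 3.58 without LPS mice 6 and 7.

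Fosl1 (ENSMUSG00000024912, chr19:5497575-5505974) encodes FRA-1, which is itself an AP-1 target in many cells. It was scarce, at 0.685, 0.657 and 0.506 CPM in the control mice, which stood for 14, 14 and 11 counts. In LPS mice 1, 6 and 7 it reached 7.71, 1.91 and 2.68 CPM. No LPS mouse overlapped the controls, and LPS mouse 1 was by far the highest. For Fosl1, the log2 fold change of 2.72 (SE 0.531, edgeR quasi-likelihood test, Benjamini-Hochberg adjusted p = 0.0014) became 1.90 without LPS mouse 1 and 3.64 without LPS mice 6 and 7. Fosl1 shares exonic sequence with Ccdc85b on the opposite strand, which had between 642 and 2570 counts per library. The strand setting of the counting is not given in the sources used here, so reads of this overlap cannot be assigned with certainty.

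Fosb (ENSMUSG00000003545, chr7:19036621-19043976) encodes the partner known for a stable, shortened form that builds up on repeated stimulation. It was at 13.7, 9.76 and 12.2 CPM in the control mice and at 12.7, 5.72 and 5.75 CPM in LPS mice 1, 6 and 7. LPS mouse 1 lay within the control range, while LPS mice 6 and 7 lay below it. Fosb had a log2 fold change of -0.56 (SE 0.329, 95% interval -1.30 to 0.18, edgeR quasi-likelihood test, Benjamini-Hochberg adjusted p = 0.158). The call depended on LPS mouse 1, without which the value was -1.04 (edgeR, Benjamini-Hochberg adjusted p = 0.00597). Without LPS mouse 6, and likewise without LPS mouse 7, it was -0.36 and not called, and without both it was 0.10. With scaling by library size only, it was -0.87 (edgeR, Benjamini-Hochberg adjusted p = 0.0266).

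All 3 Jun genes rose with LPS, Junb most and Jun least. Junb (ENSMUSG00000052837, chr8:85701113-85705359) encodes a Jun protein that activates less strongly than JUN on many promoters and can oppose it. Its level was 104, 96.1 and 98.4 CPM in the control mice and 1110, 566 and 621 CPM in LPS mice 1, 6 and 7. The control mice were close together and every LPS mouse was far above them. Junb had a log2 fold change of 2.94 (SE 0.246, edgeR quasi-likelihood test, Benjamini-Hochberg adjusted p = 7.21e-06), and 3.49 without LPS mice 6 and 7. The neighbouring Prdx2, whose exons overlap Junb on the opposite strand, had 1600 to 1944 counts in the control libraries and 908 to 1128 in the LPS libraries. Reads of this overlap cannot be told apart without the strand setting.

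Jun (ENSMUSG00000052684, chr4:94937271-94940459) encodes the founding partner of Fos and, like the other Jun genes, has a single exon. It was already abundant in control lung, at 348, 350 and 391 CPM. LPS mice 1, 6 and 7 had 816, 531 and 529 CPM. The groups were apart, but by less than for Junb. Jun had a log2 fold change of 0.78 (SE 0.169, edgeR quasi-likelihood test, Benjamini-Hochberg adjusted p = 0.00255), below a change of 2-fold, and 1.17 without LPS mice 6 and 7. Junos, on the opposite strand of Jun, had only 39 to 209 counts per library.

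Jund (ENSMUSG00000071076, chr8:71151599-71153265) encodes the Jun protein that most resting cells make constantly. Its level was 159, 137 and 160 CPM in the control mice and 512, 355 and 309 CPM in LPS mice 1, 6 and 7. Every LPS mouse was above every control mouse. Jund had a log2 fold change of 1.36 (SE 0.178, edgeR quasi-likelihood test, Benjamini-Hochberg adjusted p = 0.00011), and 1.75 without LPS mice 6 and 7.

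The stress-induced repressor Atf3, the small Maf gene Maff and the zinc finger gene Egr1 rose as well. Atf3 (ENSMUSG00000026628, chr1:190902493-190950241) is known as a brake on TLR4-induced cytokine genes in macrophages. It was at 23.1, 29.2 and 28.5 CPM in the control mice and at 156, 63.0 and 75.7 CPM in LPS mice 1, 6 and 7. LPS mouse 1 was again the highest, and the groups did not overlap. Atf3 had a log2 fold change of 1.86 (SE 0.300, edgeR quasi-likelihood test, Benjamini-Hochberg adjusted p = 0.000429), and 2.54 without LPS mice 6 and 7.

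Maff (ENSMUSG00000042622, chr15:79230821-79243276) can form repressive dimers or pair with NRF2 and related factors. Its level was 73.2, 60.1 and 64.8 CPM in the control mice and 563, 276 and 319 CPM in LPS mice 1, 6 and 7. All LPS mice lay far above the controls. Maff had a log2 fold change of 2.55 (SE 0.260, edgeR quasi-likelihood test, Benjamini-Hochberg adjusted p = 2.34e-05), and 3.10 without LPS mice 6 and 7.

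Egr1 (ENSMUSG00000038418, chr18:34992876-34998049) was at 29.8, 18.8 and 21.2 CPM in the control mice and at 217, 64.4 and 60.0 CPM in LPS mice 1, 6 and 7. The groups did not overlap, and the gap within the LPS group was the widest of the 10 genes relative to the mean of the other LPS mice. Egr1 had a log2 fold change of 2.29 (SE 0.464, edgeR quasi-likelihood test, Benjamini-Hochberg adjusted p = 0.00176). It was 1.43 without LPS mouse 1, where the call held, and 3.23 without LPS mice 6 and 7.

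**Figure D1:**
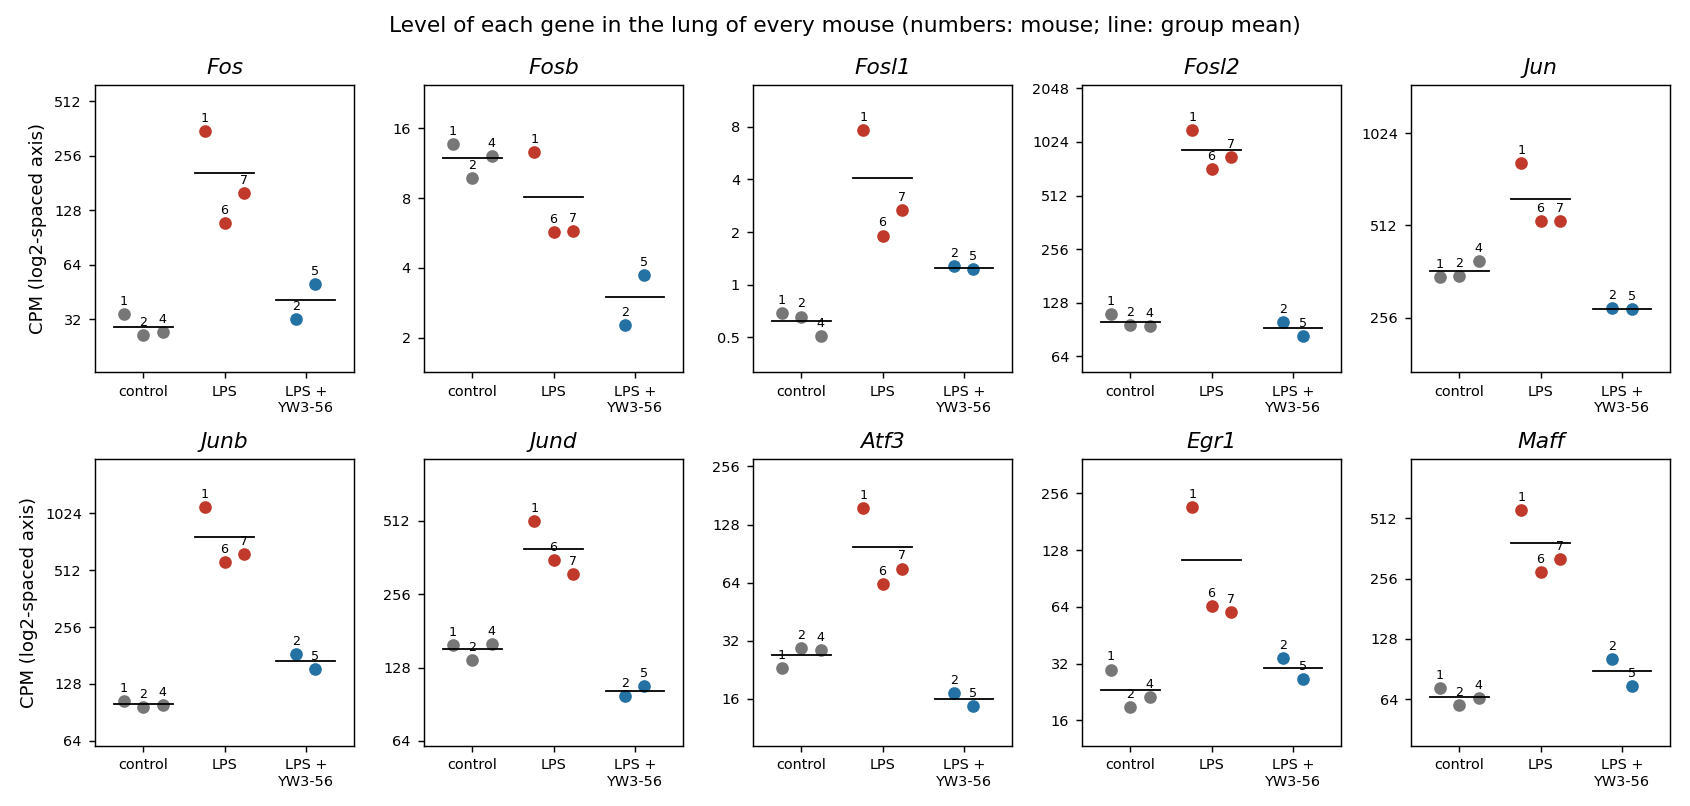
Level of each of the 10 genes in every mouse, in CPM on a log2-spaced axis that differs between panels. Points are mice, numbered as in the text, and black lines are group means. LPS mouse 1 is the highest LPS mouse in each panel, and Fosb is the only gene in which the LPS and control mice overlap.

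LPS mouse 1 had the highest level of the 3 LPS mice in 10 of 10 genes, whereas this mouse was the highest of the 3 in 37.6% of all tested genes. It was the highest of all 8 mice in 9 of the 10 genes, and in 20.3% of all tested genes. The ratio of LPS mouse 1 to the mean of LPS mice 6 and 7 ran from 1.53 for Fosl2 to 3.49 for Egr1, with a median of 2.05. Over all tested genes the median of this ratio was 1.02. LPS mouse 1 was also the highest of the 3 in 10 of 10 genes when counts were divided by library size alone. It was also the LPS mouse whose squamous and muscle sums were not above the control range, and the part of that tissue in the difference was not tested.

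Pretreatment with YW3-56 went with low levels of all 10 genes. Compared with LPS alone, 10 of 10 were lower in the LPS plus YW3-56 group by the edgeR quasi-likelihood test (Benjamini-Hochberg adjusted p under 0.05), where 27.4% of all tested genes were called lower and 31.7% higher. None of the 10 was called higher by edgeR, by an unadjusted p under 0.05 or by DESeq2. In 10 of 10 genes both dual-treated mice were below every LPS mouse, a separation that 32.9% of all tested genes showed. The median log2 fold change was -2.03 over the 10 genes and 0.06 over all tested genes. This comparison and that of LPS with control share the 3 LPS mice, so opposite signs in them are not independent. Leaving out LPS mice 6 and 7 could only widen these differences, because LPS mouse 1 was the highest LPS mouse in each gene. Without dual-treated mouse 2, and likewise without dual-treated mouse 5, the count called lower was 8, and without LPS mouse 1 it was 9.

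Against control lung, 1 of the 10 genes was called in dual-treated lungs. This was Fosb, and it was lower. In this comparison 9.13% of all tested genes were called higher and 7.02% lower. With all mice, TMM scaling and the filter on low counts, the edgeR quasi-likelihood test called none of the 10 genes higher. At an unadjusted p under 0.05 it called 1 higher, and DESeq2 called 1 higher, which was Junb in both cases. Junb was also called higher by edgeR with library size only, without the filter on low counts and with only the compared groups fitted. DESeq2 called 2 lower, and of 17727 genes it tested in all it called 1854 higher and 1871 lower. The median log2 fold change was 0.14 over the 10 genes and 0.00 over all tested genes. In 3 genes (Fosl1, Junb and Maff) both dual-treated mice were above every control mouse, which held for 26.1% of all tested genes. In 4 genes (Fosb, Jun, Jund and Atf3) both were below every control mouse, which held for 26.2%. These shares are close to what the 10 genes showed, so the separation is not particular to them.

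Within the Fos family, Fosl2 showed the largest difference between LPS and dual treatment. Dual-treated mice 2 and 5 had 100 and 83.5 CPM of Fosl2, beside 94.6 to 110 CPM in control mice. The groups given LPS alone and with YW3-56 were widely apart, whereas the dual-treated and control mice overlapped. The log2 fold change against LPS was -3.32 (SE 0.232, edgeR quasi-likelihood test, Benjamini-Hochberg adjusted p = 7.64e-06). Against control it was -0.12 (95% interval -0.58 to 0.33, edgeR quasi-likelihood test, Benjamini-Hochberg adjusted p = 0.74).

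Fos was at 31.9 and 50.0 CPM in dual-treated mice 2 and 5. Mouse 2 lay within the control range and mouse 5 above it, and both were below the lowest LPS mouse. Fos had a log2 fold change of -2.33 against LPS (SE 0.450, edgeR quasi-likelihood test, Benjamini-Hochberg adjusted p = 0.00172) and 0.49 against control (95% interval -0.44 to 1.42, adjusted p = 0.469). Without LPS mouse 1 the difference from LPS was -1.72, and without LPS mice 6 and 7 it was -3.10.

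Fosl1 was at 1.27 and 1.23 CPM in dual-treated mice 2 and 5, which stood for 28 counts in each. Both values were above every control mouse and below every LPS mouse. Fosl1 had a log2 fold change of -1.71 against LPS (SE 0.570, edgeR quasi-likelihood test, Benjamini-Hochberg adjusted p = 0.0272) and 1.02 against control (95% interval -0.31 to 2.34, adjusted p = 0.285). The call against LPS was lost without LPS mouse 1, where the log2 fold change shrank to -0.88 (edgeR, Benjamini-Hochberg adjusted p = 0.0813). It was also lost without dual-treated mouse 2 (-1.74, adjusted p = 0.0843) and without dual-treated mouse 5 (-1.69, adjusted p = 0.0985), although the size of the difference hardly moved. With only the LPS and dual-treated groups fitted it narrowly missed the threshold (-1.71, adjusted p = 0.051). Scaling by library size only gave -1.34 and no call either (edgeR, Benjamini-Hochberg adjusted p = 0.0512). Leaving out LPS mice 6 and 7 gave -2.63.

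With low-count genes filtered out, Fosb was the 1 gene of the 10 that the edgeR fit of all 8 mice called lower than control. Dual-treated mice 2 and 5 had 2.27 and 3.73 CPM, from 50 and 85 counts. Both were below every control mouse and every LPS mouse. Fosb had a log2 fold change of -1.98 against control (SE 0.401, edgeR quasi-likelihood test, Benjamini-Hochberg adjusted p = 0.0104) and -1.42 against LPS (SE 0.397, adjusted p = 0.0123). Without dual-treated mouse 2 neither call held, with -1.70 against control (edgeR, Benjamini-Hochberg adjusted p = 0.0757) and -1.12 against LPS (adjusted p = 0.0731). The difference from LPS was -0.94 without LPS mouse 1 (edgeR, Benjamini-Hochberg adjusted p = 0.0201) and -2.08 without LPS mice 6 and 7.

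In both dual-treated mice Junb lay above and Jun and Jund below the control mice. None of these differences passed the edgeR test with all mice, TMM scaling and the filter on low counts. Such a separation was common, upward in 26.1% and downward in 26.2% of all tested genes. Junb was at 185 and 154 CPM in dual-treated mice 2 and 5. Both were above the highest control mouse, at 104 CPM, and below the lowest LPS mouse, at 566 CPM. Junb had a log2 fold change of -2.17 against LPS (SE 0.278, edgeR quasi-likelihood test, Benjamini-Hochberg adjusted p = 0.000155) and 0.77 against control (95% interval 0.20 to 1.34, adjusted p = 0.0694). DESeq2 called the difference from control (adjusted p = 0.0141), as did edgeR fitted to those groups alone (Benjamini-Hochberg adjusted p = 0.00307), without the filter on low counts (adjusted p = 0.00301) and with library size only (adjusted p = 0.031). Prdx2, which overlaps Junb, had 2196 and 2400 counts in the dual-treated libraries, above every control library, and its part in this difference was not tested.

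Jun was at 276 and 273 CPM and Jund at 97.8 and 108 CPM in dual-treated mice 2 and 5. For both genes these mice lay below the lowest control mouse. Against LPS the log2 fold change was -1.19 for Jun (SE 0.195, edgeR quasi-likelihood test, Benjamini-Hochberg adjusted p = 0.000681) and -1.93 for Jund (SE 0.210, adjusted p = 6.3e-05). Against control it was -0.40 for Jun (95% interval -0.83 to 0.02, edgeR quasi-likelihood test, Benjamini-Hochberg adjusted p = 0.186) and -0.56 for Jund (95% interval -1.01 to -0.12, adjusted p = 0.0852). The difference of Jund from control passed with DESeq2 (adjusted p = 0.0208), and that of Jun did not (-0.42, adjusted p = 0.0951). With edgeR fitted to the dual-treated and control groups alone, both genes were called lower than control, Jun at -0.39 (Benjamini-Hochberg adjusted p = 0.0298) and Jund at -0.55 (adjusted p = 0.0121). Without the filter on low counts Jund was called as well (-0.57, adjusted p = 0.0161). Without LPS mice 6 and 7, the difference from LPS was -1.58 for Jun, -2.32 for Jund and -2.72 for Junb.

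Atf3 was at 17.2 and 14.6 CPM in dual-treated mice 2 and 5, below the lowest control mouse at 23.1 CPM. Atf3 had a log2 fold change of -2.62 against LPS (SE 0.363, edgeR quasi-likelihood test, Benjamini-Hochberg adjusted p = 0.000249) and -0.76 against control (95% interval -1.53 to 0.01, adjusted p = 0.169). Fitted to the dual-treated and control groups alone, edgeR called the difference from control (-0.75, Benjamini-Hochberg adjusted p = 0.0124), as it did without the filter on low counts (-0.76, adjusted p = 0.0175). DESeq2 did not call this difference (-0.78, adjusted p = 0.0566). After Fosl2, Atf3 showed the largest difference between LPS and dual treatment among the 10 genes. Without LPS mice 6 and 7 this difference was -3.30 for Atf3, -3.71 for Fosl2 and -2.68 for Maff.

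Maff was at 102 and 74.6 CPM in dual-treated mice 2 and 5, far below the LPS mice. Mouse 5 was just above the highest control mouse, at 73.2 CPM, and mouse 2 lay further above it. Maff had a log2 fold change of -2.13 against LPS (SE 0.298, edgeR quasi-likelihood test, Benjamini-Hochberg adjusted p = 0.000262) and 0.42 against control (95% interval -0.20 to 1.03, adjusted p = 0.347). Egr1 was at 34.4 and 26.6 CPM, which overlapped the control mice. Its log2 fold change was -1.90 against LPS (SE 0.529, edgeR quasi-likelihood test, Benjamini-Hochberg adjusted p = 0.012) and 0.39 against control (95% interval -0.73 to 1.52, adjusted p = 0.648). The difference of Egr1 from LPS was -1.03 without LPS mouse 1 and -2.84 without LPS mice 6 and 7. It lost its call without dual-treated mouse 5 (log2 fold change -1.73, edgeR, Benjamini-Hochberg adjusted p = 0.0688).

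**Figure D2:**
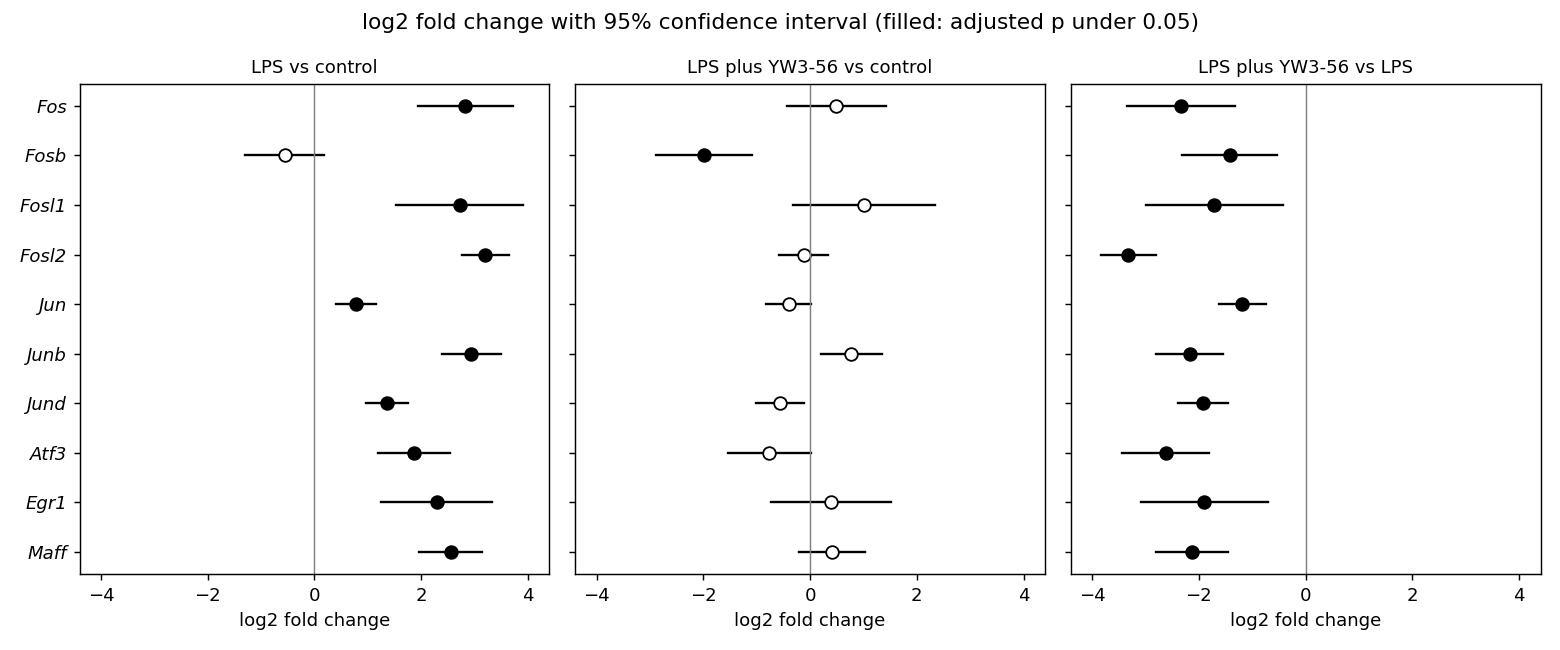
log2 fold change of each of the 10 genes in the 3 comparisons, with 95% confidence intervals as lines and filled points where the Benjamini-Hochberg adjusted p of the edgeR quasi-likelihood test was under 0.05. In LPS against control 9 points are filled and above 0, in LPS plus YW3-56 against LPS, which shares the LPS mice, 10 are filled and below 0, and in LPS plus YW3-56 against control only Fosb is filled, at -1.98.

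Divided by the length of their exons, the levels of the 10 genes can be set beside each other. In control lung Jun led with a mean of 114 CPM per kb, before Jund (91.4), Junb (41.8) and Maff (20.7 CPM per kb). These 4 did not overlap in the control mice. Fos (12.3), Atf3 (11.0) and Fosl2 (9.62 CPM per kb) followed, and of these Atf3 overlapped with both of its neighbours. Egr1 (5.17), Fosb (1.90) and Fosl1 (0.303 CPM per kb) were the lowest, with no overlap. In LPS lung Junb led, with 322 CPM per kb, before Jund (235) and Jun (196 CPM per kb), and the ranges of these 3 genes over the LPS mice overlapped. The order was nevertheless the same within each LPS mouse. Fosl2 (88.5) and Fos (87.4 CPM per kb) had similar means, but Fos was the higher of them in LPS mouse 1 and the lower in LPS mice 6 and 7. Fosb, at 1.29 CPM per kb, was the lowest. In dual-treated lung Jun led again with 86.1 CPM per kb, before Junb (71.3) and Jund (61.8 CPM per kb). Jun was the highest in both mice, whereas Junb and Jund overlapped, with 64.8 and 64.9 CPM per kb in dual-treated mouse 5.

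The make-up of the Jun family thus shifted toward Junb with LPS. Junb made up 17.6, 17.4 and 15.9% of the summed Jun family level per kb in control mice, and 45.4, 38.5 and 42.6% in LPS mice 1, 6 and 7. In dual-treated mice 2 and 5 its share was 34.9 and 30.1%, between the other groups and overlapping neither. The share of Jun went the opposite way, from a mean of 46.1% in control mice to 26.3% in LPS mice and 39.3% in dual-treated mice. The ratio of Junb to Jun per kb was 0.401, 0.367 and 0.337 in control mice, 1.83, 1.43 and 1.57 in LPS mice, and 0.898 and 0.758 in dual-treated mice. Junb therefore exceeded Jun in each LPS mouse and in no other mouse. Each pair of groups gave a two-sided exact permutation p of 0.1 for this ratio, the smallest that 3 against 3 or 3 against 2 mice allow. The ratio does not depend on the scaling of the libraries. The summed Jun family level was 247 ± 13.9 CPM per kb in control mice (SD, n = 3), 753 ± 240 in LPS mice (SD, n = 3) and 219 ± 5.57 in dual-treated mice (SD, n = 2).

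In the Fos family it was Fosb that lost its share. It made up 7.95, 7.06 and 8.55% of the summed Fos family level per kb in control mice, 0.755, 0.778 and 0.612% in LPS mice 1, 6 and 7, and 1.50 and 1.96% in the dual-treated mice. The groups did not overlap, and the dual-treated mice were nearer to the LPS mice. Fos and Fosl2 together held most of the family level in every mouse. Fos took 55.2% in LPS mouse 1 and 39.2 and 44.8% in LPS mice 6 and 7, where Fosl2 took the larger share. The summed Fos family level was 24.2 ± 2.91 CPM per kb in control mice (SD, n = 3), 179 ± 79.7 in LPS mice (SD, n = 3) and 27.3 ± 4.44 in dual-treated mice (SD, n = 2). The Jun family sum was 9.04, 10.5 and 11.4 times the Fos family sum in control mice, and 3.83, 5.25 and 4.06 times in LPS mice. In dual-treated mice 2 and 5 it was 9.24 and 7.08 times.

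**Figure D3:**
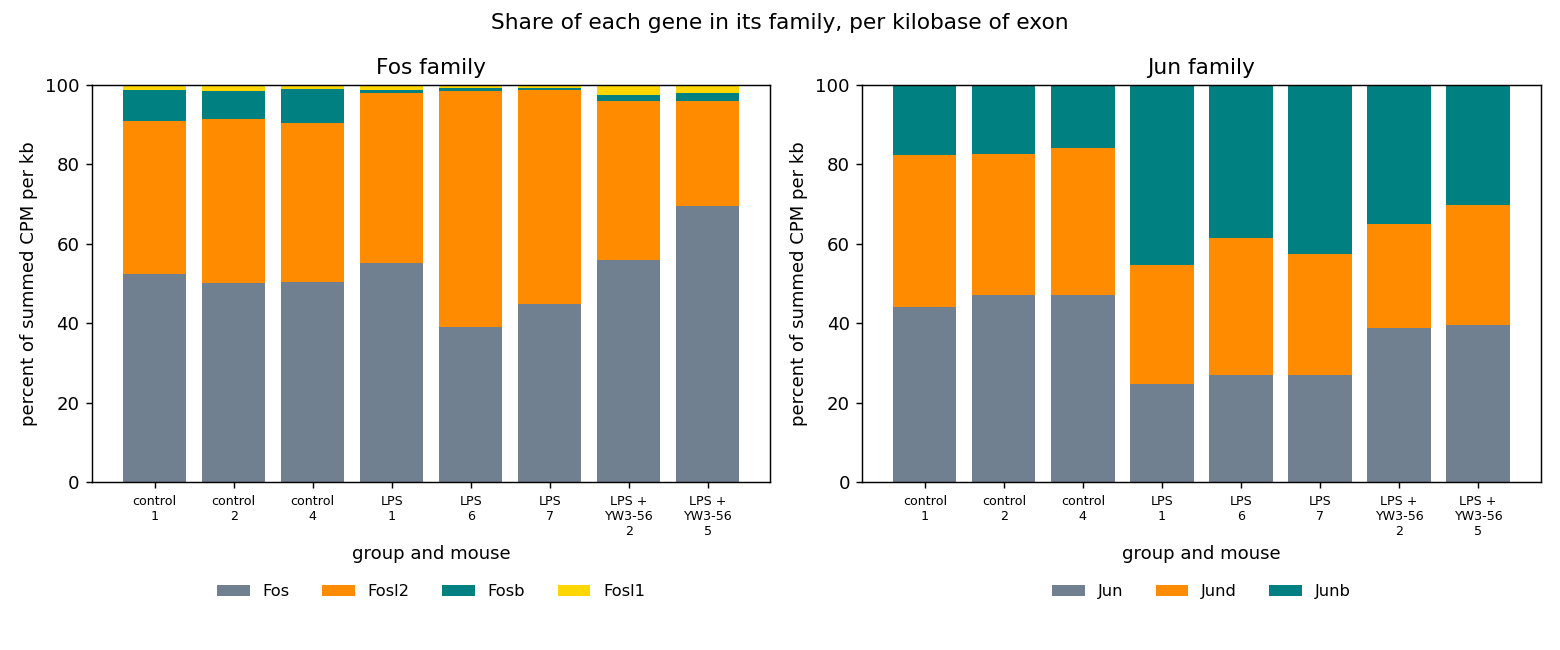
Share of each gene in the summed level of its family in every mouse, in percent of CPM per kb of exon. The share of Junb is 38.5% or more in LPS mice and 17.6% or less in control mice, and the share of Fosb is 7.06% or more in control mice and below 2% elsewhere.

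Genes with the most similar profile over the 8 mice were sought among 12163 genes with a mean of at least 5 CPM. The measure was the root mean square difference of log2 CPM after centring each gene on its mean. Maff was closest to Dusp1, a phosphatase of MAP kinases, at 0.0878, and then to Myc at 0.123. Fosl2 was closest to Tiparp at 0.116 and to the kinase gene Sik1 at 0.152. Fos was closest to 3 immediate early genes, Gem at 0.236, Zfp36 at 0.254 and Nr4a1 at 0.265. Junb was closest to Nfkbiz, a nuclear regulator of NF-kB targets, at 0.143, and among the 10 genes to Maff at 0.197. Jund was nearest to the chaperone gene Dnajb4 at 0.0817 and Jun to the phosphofructokinase gene Pfkp at 0.0993. Fosl1 was nearest to the adhesion gene Vcam1 at 0.275 and then to Egr1 at 0.307. Egr1 was nearest to Sh2d2a at 0.329 and, within the 10 genes, to Maff at 0.355, with Fosl1 too scarce to be searched as a neighbour. Fosb was nearest to Igfbp2 at 0.266 but far from the other AP-1 genes, of which Jun was the nearest at 0.761.

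Other immediate early genes were more often higher than lower with LPS, and more often lower than higher from LPS to dual treatment. Of 21 tested genes of this list (22 listed), 13 were higher and 1 lower in LPS than in control lung by the edgeR quasi-likelihood test, beside 32.6% and 33.9% of all tested genes, and the median log2 fold change was 0.71. Csrnp1, which encodes a nuclear protein rich in cysteine and serine, rose most, from 38.6, 36.9 and 35 CPM in control mice to 1380, 637 and 662 CPM in LPS mice 1, 6 and 7. Its log2 fold change was 4.60 (SE 0.346, edgeR quasi-likelihood test, Benjamini-Hochberg adjusted p = 4.11e-06). Zfp36, whose protein destabilises cytokine mRNA, rose by 3.01, the orphan receptor gene Nr4a1 by 2.87 and Myc by 2.59 on the log2 scale. From LPS to dual treatment 12 of the 21 genes were lower and 1 higher (27.4% and 31.7% of all tested genes), led by Csrnp1 at -3.72 and Ccn1 at -2.63. Against control, 3 were lower in the dual-treated lungs (7.02% of all tested genes), among them Nr4a3 at -2.15 (SE 0.460, edgeR quasi-likelihood test, Benjamini-Hochberg adjusted p = 0.0131).

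The other leucine zipper genes that can pair with AP-1 proteins were mixed. Of 18 genes, 10 rose and 4 fell with LPS (32.6% and 33.9% of all tested genes), with a median log2 fold change of 0.52. Batf2 was at 3.77, 3.90 and 4.05 CPM in control mice and at 51.2, 40.0 and 45.1 CPM in LPS mice, and unlike the AP-1 genes its level was similar in the 3 LPS mice. Its log2 fold change was 3.54 (SE 0.137, edgeR quasi-likelihood test, Benjamini-Hochberg adjusted p = 2.98e-07). Batf3 rose by 2.50 and Bach1, a repressor that pairs with small Maf proteins, by 1.96 on the log2 scale. From LPS to dual treatment 10 of the 18 were lower and 4 higher, beside 27.4% and 31.7% of all tested genes, with Batf2 at -3.10 and Maf at 1.85. Against control, 2 were higher and 4 lower in the dual-treated lungs, beside 9.13% and 7.02%.

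Kinases and promoter factors upstream of AP-1 showed no common direction at the RNA level. Of 23 genes, 8 were higher and 7 lower with LPS, close to the 32.6% and 33.9% of all tested genes, with a median log2 fold change of 0.06. Elk3, which encodes a repressive partner of SRF at Fos type promoters, fell from 83.8, 81.1 and 79.2 CPM in control mice to 7.36, 6.87 and 7.14 CPM in LPS mice and was at 69.4 and 82.8 CPM in dual-treated mice. The log2 fold change was -3.51 with LPS (SE 0.105, edgeR quasi-likelihood test, Benjamini-Hochberg adjusted p = 8.37e-08) and 3.42 from LPS to dual treatment (SE 0.11, adjusted p = 3.18e-07). The p38 activator gene Map2k6 had the largest change with LPS, at -3.68 (SE 0.861, adjusted p = 0.00402), from 40, 52 and 53 counts in control mice and 0, 1 and 8 counts in LPS mice. Map3k8, which links TLR4 to ERK, rose by 2.42 and the p38 kinase gene Mapk13 by 2.28 on the log2 scale. From LPS to dual treatment 8 were higher and 9 lower, where all tested genes gave 31.7% and 27.4%. Against control, 4 of the 23 were higher in dual-treated lungs (9.13% of all tested genes), and Map3k8 was the furthest, at 1.22.

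Dual-specificity phosphatases switch MAP kinases off, and several are themselves immediate early genes. With LPS, 5 of 11 rose and 1 fell, beside 32.6% and 33.9% of all tested genes. Dusp1 was at 229, 213 and 217 CPM in control mice, 1850, 982 and 1060 CPM in LPS mice 1, 6 and 7, and 296 and 252 CPM in dual-treated mice. LPS mouse 1 was the highest here too. The log2 fold change of Dusp1 was 2.56 with LPS (SE 0.232, edgeR quasi-likelihood test, Benjamini-Hochberg adjusted p = 1.14e-05) and -2.24 from LPS to dual treatment (SE 0.267, adjusted p = 0.000105). From LPS to dual treatment 6 of 11 were lower and 2 higher (27.4% and 31.7% of all tested genes). Dusp2, expressed in leukocytes, rose most of this list with LPS, by 4.33 on the log2 scale, and was lower from LPS to dual treatment, at -2.13. It was still above control in the dual-treated lungs, with a log2 fold change of 2.21 (SE 0.351, edgeR quasi-likelihood test, Benjamini-Hochberg adjusted p = 0.00326).

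Genes known as AP-1 targets did not all move with the AP-1 genes. Of 14 tested (15 listed), 9 rose and 3 fell with LPS (32.6% and 33.9% of all tested genes), and from LPS to dual treatment 7 were lower and 4 higher (27.4% and 31.7%). Timp1, an inhibitor of matrix proteases, was at 7.39, 5.63 and 9.52 CPM in control mice, 349, 292 and 210 CPM in LPS mice 1, 6 and 7, and 74.5 and 41.9 CPM in dual-treated mice. It was thus lower than in LPS lung but above control, with a log2 fold change of 2.95 against control (SE 0.300, edgeR quasi-likelihood test, Benjamini-Hochberg adjusted p = 0.000321). The largest change of this list from LPS to dual treatment was that of the collagenase gene Mmp13, at -2.84 (SE 0.569, edgeR quasi-likelihood test, Benjamini-Hochberg adjusted p = 0.00214), from 7 and 16 counts in the dual-treated mice. Mmp9, a neutrophil-borne gelatinase, was between 9.06 and 16.2 CPM in control mice, 65.0, 111 and 72.3 CPM in LPS mice, and 85.0 and 96.5 CPM in dual-treated mice. The dual-treated mice lay within the LPS range for Mmp9, and the log2 fold change between these groups was 0.13 (SE 0.264, edgeR quasi-likelihood test, Benjamini-Hochberg adjusted p = 0.688). Against control, 7 of the 14 target genes were higher in dual-treated lungs and 1, Areg, was lower, beside 9.13% and 7.02% of all tested genes.

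Because 9 of the 10 genes were higher with LPS and 10 of 10 lower from LPS to dual treatment, their promoters were searched for the motifs of factors known to act on immediate early genes. The window was the 400 bases before the annotated start of the main transcript, read from GRCm39, and both strands were searched in 21767 protein-coding promoters. The CArG box, bound by SRF, occurred in Fos and Fosb and in 2.21% of all promoters. An NF-kB site also occurred in Fos and Fosb, and in 5.98% of all promoters. The CRE palindrome TGACGTCA occurred in Jund and Maff and in 1.87% of all promoters, and its left part TGACG, which overlaps each full CRE, in 8 of the 10 genes and in 23.1% of all promoters. The EGR motif GCGNGGGCG occurred in Fosb, Jund and Maff and in 5.12% of all promoters, and the TATA motif TATAAA in Fos, Fosl1 and Junb and in 19.2%. The AP-1 motif TGANTCA was in none of the 10 windows and in 9.87% of all promoters. Only exact matches were counted, so longer or variant forms of this site were not searched. A match describes the sequence only, and binding was not measured. Only the start of the main transcript was used, so a site near another start of a gene would be missed.

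Fos and Fosb shared the CArG box and the NF-kB site in this window, although Fos rose with LPS and Fosb did not pass the test. Their promoters are shown for that reason, each as 300 bases of GRCm39, 5′ to 3′ on the strand of the gene. The stretch of Fos is chr12:85520338-85520637 on the plus strand, from -320 to -21 relative to the start. The stretch of Fosb is chr7:19043977-19044276 on the minus strand, from -300 to -1. Capitals mark, in Fos, the CArG box at -303 to -294, the NF-kB site at -208 to -199 and the TATA motif at -27 to -22. In Fosb they mark the CArG box at -266 to -257, the NF-kB site at -182 to -173 and the EGR motif at -44 to -36.
Fos: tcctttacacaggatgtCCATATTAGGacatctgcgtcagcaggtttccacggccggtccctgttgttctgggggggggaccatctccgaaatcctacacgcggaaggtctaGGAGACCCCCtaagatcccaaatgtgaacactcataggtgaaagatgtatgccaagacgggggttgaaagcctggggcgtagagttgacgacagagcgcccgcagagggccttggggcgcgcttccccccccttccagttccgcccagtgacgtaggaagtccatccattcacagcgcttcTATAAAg
Fosb: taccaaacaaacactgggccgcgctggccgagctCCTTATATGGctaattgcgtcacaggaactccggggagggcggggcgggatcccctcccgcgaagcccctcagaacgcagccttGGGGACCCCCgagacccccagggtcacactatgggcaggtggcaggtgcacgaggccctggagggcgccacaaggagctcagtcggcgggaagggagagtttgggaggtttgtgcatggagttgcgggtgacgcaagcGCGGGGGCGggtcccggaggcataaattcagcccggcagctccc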

How the data were processed

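Per the labels and methods, the authors trimmed reads, aligned them to GRCm39 with HISAT2 (2.2.1) and counted them per Ensembl gene with featureCounts (2.0.1). They deposited raw counts for each mouse. The annotation release, the strand setting and the handling of multi-mapping reads are not given in the sources used here.

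Gene IDs were matched to GENCODE M39 symbols (54749 of 55416, the rest holding 0.0533% of counts). Counts of all 8 mice were fitted with 1 group factor in edgeR (4.0.16, R 4.3.3) with TMM factors, filterByExpr and the quasi-likelihood test (5 residual degrees of freedom). A gene was called where its Benjamini-Hochberg adjusted p over 18560 genes was under 0.05. The fit was tested on simulated data. DESeq2 (1.42.0), other scalings, filters, thresholds and left-out mice were alternatives. Levels per kb used the union of annotated exons. Profiles used log2 CPM with a prior count of 2.

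The members and gene lists were chosen with earlier results of these data known. Genes named from a list are, unless stated, among the up to 4 called ones with the largest change in a comparison and a mean of at least 1 CPM, and not all of these are named. The labels name separate mice. Intervals cover 95%.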

Additional observations from a re-analysis of the deposited data

How the results depend on the processing

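Over the 10 genes and 3 comparisons, 369 of 390 log2 fold changes from alternative fits kept their direction and their side of the threshold, 12 gained a call, 8 lost one and 1 reversed. The reversal was Fosb with LPS, at 0.10 without LPS mice 6 and 7. In LPS plus YW3-56 against control, the count of called AP-1 genes was 2 with library size only, 4 without a filter, 5 with only the compared groups fitted and 3 with DESeq2, and it ran from 0 to 1 when single mice were left out, with 0 without dual-treated mouse 2. In that comparison 2997 genes were called in all, and 1220 to 3225 with single mice left out. With library size only, 2846 of 18560 tested genes were called there, and 3509 of 32006 without a filter. Fitting only the compared groups gave 3841 of 17640, and DESeq2 gave 3725 of 17727. With a fold change over 2 added to the adjusted p, 7279 genes were called for LPS against control, 1327 for LPS plus YW3-56 against control and 6264 for LPS plus YW3-56 against LPS. With an unadjusted p under 0.05 and a fold change over 2, the counts were 7450, 1944 and 6554.

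With library size only, the share of calls that were higher was 35.6% for LPS against control (49.0% with TMM) and 71.0% for LPS plus YW3-56 against LPS (53.6% with TMM), and the median log2 fold change of all tested genes was -0.29 and 0.38. The calls of AP-1 genes gained or lost there were Fosb for LPS against control, Junb for LPS plus YW3-56 against control and Fosl1 for LPS plus YW3-56 against LPS. A lone mouse left in a group was assumed to vary like the other groups. No paired analysis was possible because the groups shared at most 1 replicate number. The dual-treated group held 2 mice, and Fosl1 rested on 11 to 130 counts per library.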
